A study of Mus musculus with 10 samples.

Results

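The alpha-1 antitrypsin gene cluster of the mouse was followed here as 6 genes, Serpina1a, Serpina1b, Serpina1c, Serpina1d, Serpina1e and Serpina1f. They were taken by symbol from the joined table of kidney gene counts, which held 24062 genes. All 6 were present, and all 6 passed the filter on low counts that left 15547 genes for testing. RNA came from whole kidney of adult mice, 1 animal per library, and the polyadenylated fraction was sequenced in single-end reads of 100 bases. The KO group was 4 male C57BL/6N animals labelled as knockout for Ehhadh, the gene of a peroxisomal enzyme of fatty acid β-oxidation. The WT group was 4 male C57BL/6N animals with the wild-type gene, and 1 further wild-type animal each came from the strains DBA_2J and 129S2_SvPasCrl. No treatment is given in the labels for any group, and the knockout allele, the exact age and the hour of collection are not stated in them.

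Alpha-1 antitrypsin is a serpin, a protease inhibitor that is cut by its target and then holds it in a covalent complex. The cut falls in an exposed reactive loop, between the residues called P1 and P1′, and the P1 residue largely sets which proteases are trapped. The human protein, made mainly by hepatocytes and secreted into plasma, carries methionine at P1 and inhibits neutrophil elastase. In the mouse the gene was duplicated in tandem, and inbred strains are known to differ in how many copies they hold. Proximal tubule cells of the kidney take up filtered plasma proteins through the receptors megalin and cubilin, and some antitrypsin transcript is also found in the kidney itself.

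The members lay side by side on the minus strand of chromosome 12, between 103688044 and 103956897 in the mm10 build (GRCm38), a span of 268.9 kb. In order of coordinate they were Serpina1f (103688044 to 103695529), Serpina1b (103728156 to 103738189), Serpina1d (103763587 to 103773633), Serpina1a (103853295 to 103863619), Serpina1c (103894926 to 103904950) and Serpina1e (103946932 to 103956897). None of their exons overlapped an exon of another gene in the counted annotation. The reactive loop is where the copies differ most in what they can inhibit, so its coding sequence is shown for each member, as 25 codons (75 bases) from the GENCODE M21 transcripts on GRCm38. Each line runs 5′ to 3′ on the coding strand, and capitals mark the P1 and P1′ codons, counted from the glycine codon that opens the stretch.
Serpina1a: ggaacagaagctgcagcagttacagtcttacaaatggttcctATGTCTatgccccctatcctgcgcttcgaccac
Serpina1b: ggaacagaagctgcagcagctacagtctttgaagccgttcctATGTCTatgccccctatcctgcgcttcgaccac
Serpina1c: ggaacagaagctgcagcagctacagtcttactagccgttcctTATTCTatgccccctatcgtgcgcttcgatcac
Serpina1d: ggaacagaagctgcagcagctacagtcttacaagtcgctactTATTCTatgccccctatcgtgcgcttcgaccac
Serpina1e: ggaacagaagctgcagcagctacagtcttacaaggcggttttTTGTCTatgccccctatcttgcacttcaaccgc
Serpina1f: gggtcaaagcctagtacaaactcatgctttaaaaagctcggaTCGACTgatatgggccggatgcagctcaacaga

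These stretches lie in exon 5 of the transcripts of Serpina1a (chr12:103853756-103853830), Serpina1b (chr12:103728323-103728397), Serpina1c (chr12:103895093-103895167), Serpina1d (chr12:103763761-103763835) and Serpina1e (chr12:103947099-103947173). In Serpina1f the stretch lies in exon 6 (chr12:103689810-103689884). Serpina1a and Serpina1b shared the P1 codon ATG, the codon of methionine, and differed at 6 of 75 bases. Serpina1c and Serpina1d shared the P1 codon TAT and differed at 5 bases. Serpina1e had TTG at that position and differed from the other 4 of this group at 10 to 12 bases. Serpina1f had TCG, followed by ACT in place of TCT, and differed from the other members at 45 to 50 bases.

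Over the whole coding sequence, loop included, the first 5 members were close to identical. Their coding sequences matched pairwise at 96.3% to 98.5% of positions, the highest being Serpina1a with Serpina1c, whereas Serpina1f matched them at 55.2% to 55.9%. A read of 100 bases could therefore fall where 2 members had the same letters. Of all 100-base windows of the Serpina1a transcript, 58.1% occurred in another member, and for Serpina1c the share was 58.5%. The shares were 26.3% for Serpina1d, 24.6% for Serpina1b and 18.2% for Serpina1e, and no window of Serpina1f occurred in another member. Only primary alignments were counted, and the labels do not say how the aligner placed a read that matched several members equally. Counts of Serpina1a and Serpina1c in particular are therefore uncertain as single-gene values, and the summed count of Serpina1a to Serpina1e is given beside them.

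**Figure D1:**
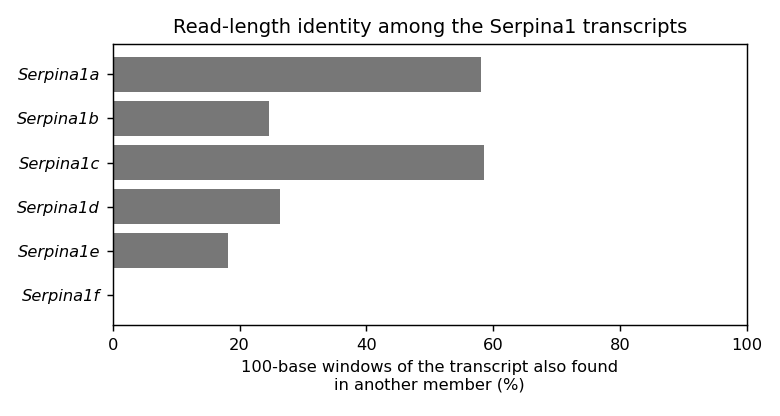
Percentage of the 100-base windows of each member's GENCODE M21 transcript that occur letter for letter in the transcript of another member (x axis, %), with 1 bar per gene. Serpina1a and Serpina1c stand at 58.1% and 58.5%, and Serpina1f at 0.

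Upstream of the genes, the C/EBP motif TTGCNNAA, bound by liver-enriched bZIP factors, was searched on both strands in the 250 bases before each RefSeq start site (GRCm38.p6). It was found in the windows of Serpina1b, Serpina1d, Serpina1e and Serpina1f, 4 of 6 members, and in 9.56% of 32851 promoters. The HNF1 half-site GTTAAT, searched in the same way, was found in those of Serpina1a to Serpina1e, 5 of 6 members. It was found in 6.43% of promoters. The 87 bases around it differed from those of Serpina1a at 2 to 6 positions, so these matches are not independent. Both motifs were searched as letters only, and a match or its lack is a description of these windows.

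Library depth, as the total of gene counts, ran from 41.49 to 52.30 M in KO and from 19.79 to 35.99 M in WT, and was 57.25 M in DBA_2J and 51.19 M in 129S2_SvPasCrl. Ehhadh checked the labels: its level was 282, 327, 246 and 175 CPM (counts for each M counts in the library, after TMM scaling) in KO 1 to KO 4, against 3416, 2211, 2087 and 2184 in WT 1 to WT 4. In edgeR its log2 fold change was −3.26 (SE 0.21) at an adjusted p of 1.86e-05. Titles of 4 libraries carry a leading E (KO 3, KO 4, WT 3 and WT 4) and those of the other 4 do not. The labels do not say what the letter marks, so values are also given within each title form. Markers of the kidney were abundant, such as Slc34a1 of the proximal tubule at 4844 to 6099 CPM in C57BL/6N libraries and Umod of the thick ascending limb at 1434 to 2223.

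In WT kidney all 6 members were transcribed, with Serpina1e the lowest per length. Per kb of counted exon, Serpina1d stood at 60.1 ± 5.13 CPM (SD, n = 4) and Serpina1a at 59.9 ± 28.3. Serpina1f followed at 40.3 ± 6.00, Serpina1b at 19.2 ± 9.95, Serpina1c at 12.5 ± 6.32 and Serpina1e at 7.41 ± 2.80. Of neighbours in this order, the ranges over WT animals overlapped for Serpina1d and Serpina1a, Serpina1a and Serpina1f, Serpina1b and Serpina1c, and Serpina1c and Serpina1e, and did not overlap for Serpina1f and Serpina1b. The genes were read in the same libraries, and within a library Serpina1b was above Serpina1c in 4 of 4 WT animals and Serpina1c above Serpina1e in 3 of 4. Serpina1d and Serpina1a were each the higher in 2. The order of Serpina1f depends on the length used, since 3158 bases of its exons were counted and its transcript has 1569. Per kb of transcript, a length tried after the data were seen, Serpina1a stood at 85.5 ± 40.4 CPM, Serpina1f at 81.2 ± 12.1 and Serpina1d at 62.2 ± 5.30, with Serpina1f above Serpina1d in 4 of 4 WT animals. Without regard to length the WT mean was 127 ± 18.9 CPM for Serpina1f and 116 ± 54.9 for Serpina1a, and Serpina1a was the higher of the 2 in WT 3 and WT 4. The coefficient of variation over the 4 WT animals was 8.53% for Serpina1d and 14.9% for Serpina1f, but 37.8% to 51.9% for the other 4 members.

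Knockout of Ehhadh moved no member past the threshold of an adjusted p of 0.05 in edgeR's quasi-likelihood test, and the KO and WT libraries overlapped for all 6 genes. Of all tested genes 6.32% passed with a higher level in KO and 4.68% with a lower one, and 17.7% had groups that did not overlap. The median log2 fold change of the 6 members was −0.32, beside −0.0057 over all tested genes. The members with ATG at P1, Serpina1a and Serpina1b, come first, then those with TAT, then Serpina1e and Serpina1f.

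Serpina1a, of the ATG pair, was read at 71.9, 63.0, 72.4 and 174 CPM in KO 1 to KO 4 and at 58.8, 83.0, 178 and 145 CPM in WT 1 to WT 4. KO 4 stood far above the other 3 KO libraries, and WT 3 and WT 4 above WT 1 and WT 2, so that the groups overlapped over nearly their whole range. The means were 95.3 ± 52.5 CPM in KO and 116 ± 54.9 in WT (SD, n = 4 each), and the log2 fold change was −0.29 (SE 0.37, 95% interval −1.11 to 0.53, adjusted p = 0.681, edgeR).

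Serpina1b, which has the same P1 codon, was read at 21.9, 22.2, 16.3 and 59.8 CPM in KO 1 to KO 4 and at 13.9, 17.1, 43.5 and 34.8 CPM in WT 1 to WT 4. KO 4 was again the highest KO library and WT 3 the highest WT library. Its log2 fold change was 0.13 (SE 0.43, 95% interval −0.81 to 1.07, adjusted p = 0.892, edgeR). In the 2 KO and 2 WT libraries with a plain title alone, the log2 fold change was 0.50 (adjusted p = 0.0203, edgeR). It was 1 of 1723 genes called there. In those with a leading E, where 143 genes were called, the value of Serpina1b was −0.04 (adjusted p = 0.983, edgeR).

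Serpina1c, the first of the TAT pair and the closest in sequence to Serpina1a, was read at 9.17, 9.03, 11.8 and 26.3 CPM in KO 1 to KO 4 and at 8.12, 12.7, 28.1 and 21.9 CPM in WT 1 to WT 4. The order of the libraries was close to that of Serpina1a, with which it shares most of its windows. The log2 fold change was −0.34 (SE 0.40, 95% interval −1.23 to 0.54, adjusted p = 0.644, edgeR).

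Serpina1d, the other gene with TAT at P1, had another pattern. It was read at 85.8, 71.7, 50.6 and 41.4 CPM in KO 1 to KO 4 and at 84.7, 86.7, 96.6 and 78.8 CPM in WT 1 to WT 4. The WT libraries lay close together, KO 1 lay among them, and KO 3 and KO 4 were the lowest of the 8. The means were 62.4 ± 20.1 CPM in KO and 86.7 ± 7.39 in WT, which is −0.48 on the log2 scale (SE 0.19, 95% interval −0.88 to −0.07). The unadjusted p was 0.026 and the adjusted p = 0.128 in edgeR, which did not pass. Without KO 1, the KO library among the WT ones, the value was −0.67 and passed (adjusted p = 0.0349, edgeR). It also passed with the title form as a term (−0.53, adjusted p = 0.0481) and in the E form alone (−0.93, adjusted p = 0.0495). In 13 other settings it did not pass, among them DESeq2 (adjusted p = 0.0554), limma on the deposited values (adjusted p = 0.0925) and edgeR without WT 3 (adjusted p = 0.274).

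**Figure D2:**
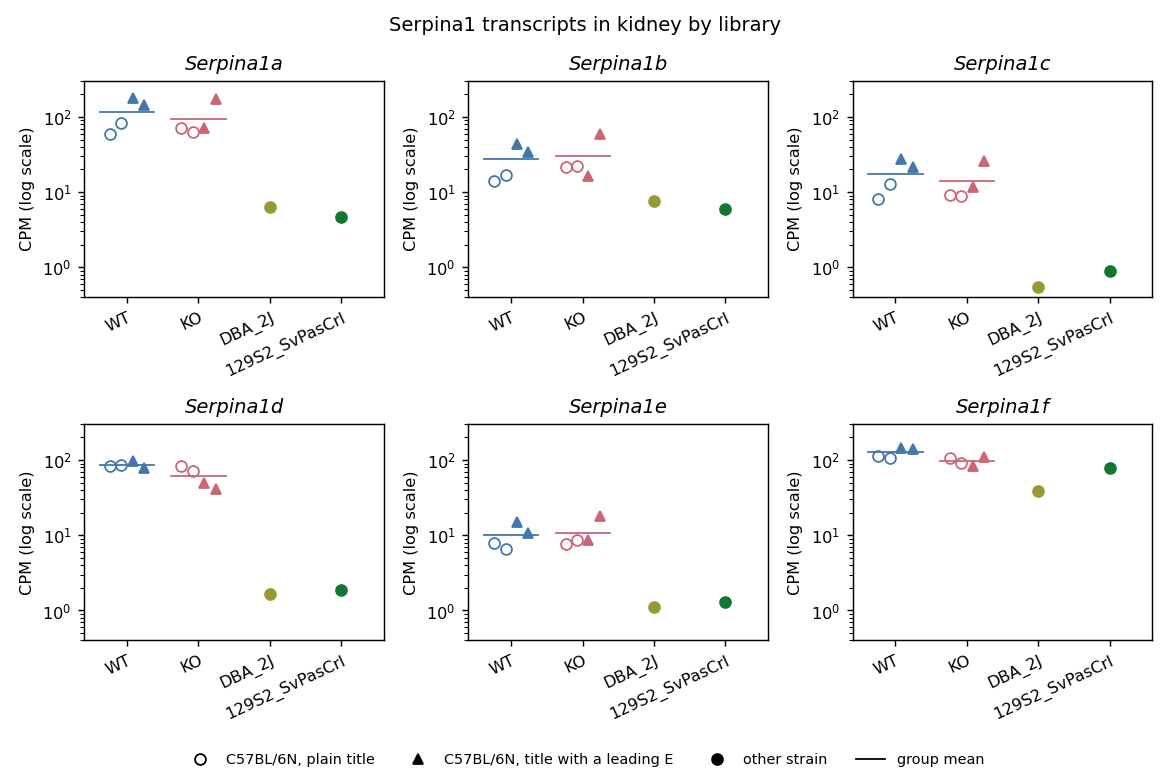
CPM of each member on a log axis (TMM scaling over all 10 libraries), with 1 point per library, grouped as WT, KO, DBA_2J and 129S2_SvPasCrl. Open circles are C57BL/6N libraries with a plain title, triangles those with a leading E, filled circles the other strains, and lines the group means; DBA_2J and 129S2_SvPasCrl lie below every WT library in all 6 panels, and KO and WT overlap in each.

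Serpina1e, the member with TTG at P1 and the lowest level, was read at 7.78, 8.90, 8.61 and 18.0 CPM in KO 1 to KO 4 and at 7.86, 6.69, 15.3 and 10.8 CPM in WT 1 to WT 4. KO 4 was the highest library of all 8. Its log2 fold change was 0.08 (SE 0.30, 95% interval −0.58 to 0.74, adjusted p = 0.902, edgeR), and the sign turned to −0.28 without KO 4.

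Serpina1f, the distant member, was read at 107, 91.9, 83.9 and 112 CPM in KO 1 to KO 4 and at 114, 108, 146 and 141 CPM in WT 1 to WT 4. KO 4, the highest KO library, lay just above WT 2, the lowest WT library, and this was the extent of the overlap. The means were 98.6 ± 12.9 CPM in KO and 127 ± 18.9 in WT, which is −0.37 on the log2 scale (SE 0.12, 95% interval −0.62 to −0.12). The unadjusted p was 0.0081 and the adjusted p = 0.0633 in edgeR, so Serpina1f did not pass there. It passed in DESeq2 (adjusted p = 0.0207) and with the title form as a term (adjusted p = 0.0496, edgeR). These settings called 2388 and 2050 genes, against 1710. It also passed without KO 4 (adjusted p = 0.0416) and without WT 2 (adjusted p = 0.0441), the libraries that made the overlap. In 12 other settings it did not pass, among them limma on the deposited values (adjusted p = 0.0625) and edgeR without WT 3 (adjusted p = 0.171).

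Read together, the 5 close copies gave 197, 175, 160 and 319 CPM in KO 1 to KO 4 and 173, 206, 361 and 292 CPM in WT 1 to WT 4. KO 4 lay within the WT range and KO 3 was the lowest of the 8. The means were 213 ± 72.7 CPM in KO and 258 ± 84.9 in WT, a difference of −0.28 on the log2 scale that was not tested. The sum does not depend on how reads were divided among these copies.

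**Figure D3:**
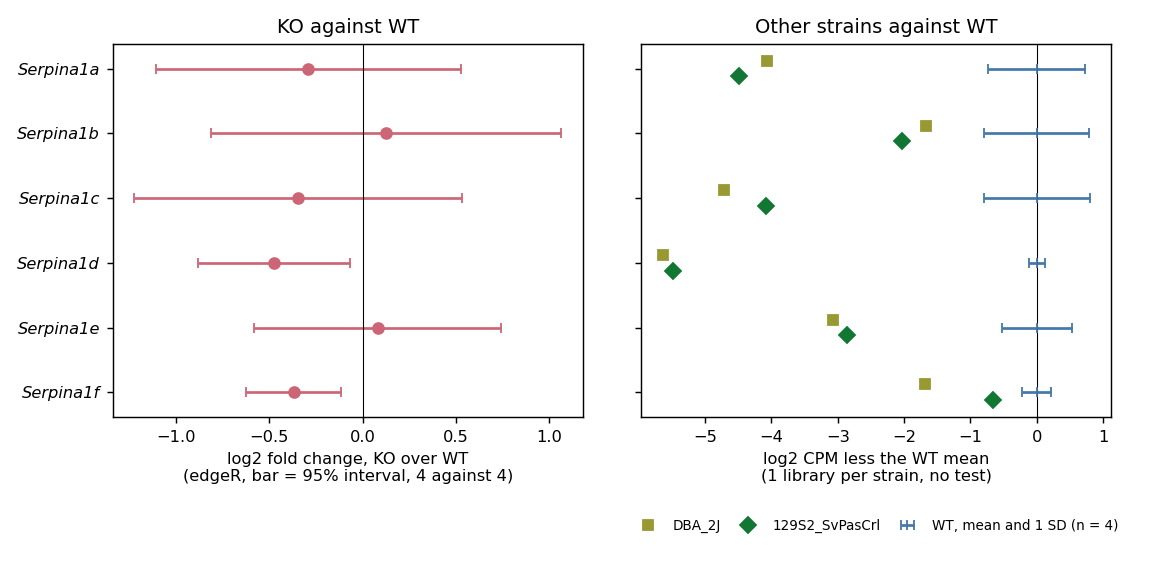
Left, log2 fold change of KO over WT for each member with its 95% interval from edgeR (4 against 4 libraries); right, log2 CPM of the single DBA_2J and 129S2_SvPasCrl libraries less the WT mean, beside the WT standard deviation. The left intervals reach from −1.23 to 1.07, and the strain differences run from −0.65 to −5.64.

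No member passed the test of title form in edgeR, though 4 of the close copies had values of 0.76 or more in it. With genotype in the model, the level in libraries with a leading E less that in the plain ones was 1.02 on the log2 scale for Serpina1a (SE 0.23, unadjusted p = 0.00098, adjusted p = 0.136, edgeR), 1.05 for Serpina1b, 1.16 for Serpina1c and 0.76 for Serpina1e. The value was −0.37 for Serpina1d and 0.17 for Serpina1f. Adjusted p ranged from 0.110 to 0.580 over the 6 members in edgeR, and 0.0193% of all tested genes passed. Within the plain form KO less WT was −0.13 on the log2 scale for Serpina1d and −0.16 for Serpina1f, and within the E form it was −0.93 and −0.57.

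The interaction of genotype with title form was −0.81 for Serpina1d (SE 0.18, unadjusted p = 0.0014, adjusted p = 0.433, edgeR) and −0.39 for Serpina1f (adjusted p = 0.755). No gene of the 15547 passed this test, while 1004 (6.46%) had an unadjusted p under 0.05. With no filter on low counts the Serpina1d interaction passed (−0.80, adjusted p = 0.0323), as one of 38 genes among 19759. The labels do not say what the title form stands for, and its part in the KO values was not tested further.

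With KO and WT pooled over the 8 C57BL/6N libraries, Serpina1a, Serpina1b, Serpina1c and Serpina1e varied together, and Serpina1d did not vary with them. Over these libraries, which differ in depth and were scaled together, the correlation of log2 CPM was 0.99 between Serpina1a and Serpina1c, 0.92 between Serpina1a and Serpina1b, 0.93 between Serpina1b and Serpina1e and 0.87 between Serpina1a and Serpina1e. Serpina1d correlated at −0.17 with Serpina1a, −0.21 with Serpina1c, −0.30 with Serpina1b and −0.41 with Serpina1e. These values mix the genotypes. Among WT libraries Serpina1a and Serpina1d were both highest in WT 3. Among KO libraries Serpina1a was highest and Serpina1d lowest in KO 4. Serpina1f, which shares no windows with the others, correlated at 0.71 with Serpina1a, 0.65 with Serpina1c and 0.55 with Serpina1b. It correlated at 0.49 with Serpina1d and 0.47 with Serpina1e. The pair with the highest correlation, Serpina1a and Serpina1c, is also the pair that shares the most windows, and the part of shared reads in these values was not tested. These are descriptions of 8 libraries and carry no test.

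**Figure D4:**
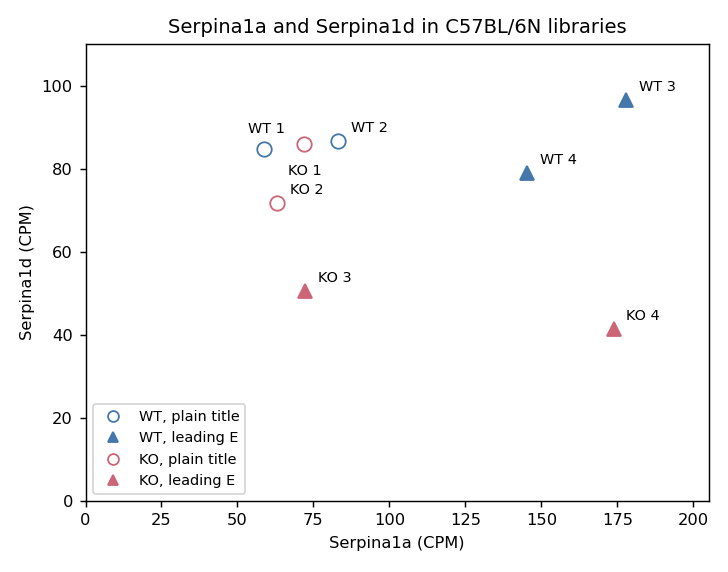
Serpina1d against Serpina1a in CPM for the 8 C57BL/6N libraries, with circles for plain titles and triangles for titles with a leading E. WT 3, WT 4 and KO 4 lie at 145 to 178 CPM of Serpina1a, where Serpina1d runs from 41.4 CPM in KO 4 to 96.6 CPM in WT 3.

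The make-up of the summed counts differed between libraries. Serpina1d held 48.8% and 42.1% of the Serpina1a to Serpina1e counts in WT 1 and WT 2, and 43.7% and 41.0% in KO 1 and KO 2. It held 26.7% and 27.0% in WT 3 and WT 4, 31.7% in KO 3 and 13.0% in KO 4 (95% exact binomial interval 12.5 to 13.5, which covers counting error only). Serpina1a held 33.9% to 54.4% over the same libraries, with the highest share in KO 4. In each genotype the share of Serpina1d was lower in both libraries with a leading E than in both without.

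Between strains the members differed more widely than between genotypes, with values of −0.65 to −5.64 on the log2 scale. Both other strains were below every WT library of C57BL/6N for all 6 members, and Serpina1d was the farthest below. The share of all tested genes below every WT library was not counted, so this describes the members only. Each strain is 1 animal, so these differences have no replicate check and no p-value. Counts of these libraries were made on the mm10 genome, which is of C57BL/6J origin, so they are reads placed on the C57BL/6J copies; the number of copies in each strain was not measured here. Over all tested genes, 8.27% were lower by 1 or more on the log2 scale in DBA_2J and 6.00% in 129S2_SvPasCrl. Serpina1f in 129S2_SvPasCrl, at −0.65, was not among them. The tested genes, members included, passed the filter on low counts in the 8 C57BL/6N libraries alone. Genes counted mainly in the other strains are therefore missing from these shares. The members' median was −3.56 in DBA_2J and −3.47 in 129S2_SvPasCrl, beside −0.02 and 0.00 over all tested genes.

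Serpina1d was at 86.1 ± 7.34 CPM in WT (SD, n = 4, scaled over all 10 libraries), at 1.68 CPM in DBA_2J (95% Poisson interval 1.35 to 2.06, counting error only) and at 1.88 CPM in 129S2_SvPasCrl (1.52 to 2.30). As ratios of CPM this was 51.4-fold and 45.8-fold below the WT mean, and 46.7-fold and 41.7-fold below the lowest WT library. Ranked over 15547 genes by log2 difference, Serpina1d was number 7 from the bottom in DBA_2J and number 5 in 129S2_SvPasCrl. In the same ranking and order of strains, Serpina1b was number 474 and 253, and Serpina1f number 467 and 1681.

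Serpina1c, which shares its P1 codon, stood at 0.553 CPM in DBA_2J and 0.890 CPM in 129S2_SvPasCrl, against 17.6 ± 8.95 in WT. These values rest on 30 and 45 counts and are 31.9-fold and 19.8-fold below the WT mean. Serpina1a, of the ATG pair, stood at 6.24 and 4.65 CPM against 115 ± 54.6, which is 18.5-fold and 24.8-fold below. Its differences in log2 CPM, taken from the mean of the WT log2 values, were −4.06 and −4.49. The standard deviation of the 4 WT libraries on that scale was 0.73 for Serpina1a, 0.80 for Serpina1c and 0.12 for Serpina1d.

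Serpina1b differed least among the close copies. It stood at 7.59 CPM in DBA_2J (95% Poisson interval 6.87 to 8.36) and 5.89 CPM in 129S2_SvPasCrl (5.24 to 6.60), against 27.1 ± 14.1 in WT with a lowest WT library of 13.8. The log2 differences were −1.67 and −2.04. Serpina1e stood at 1.11 and 1.29 CPM against 10.1 ± 3.83, or 9.15-fold and 7.87-fold below. Serpina1f stood at 38.9 CPM in DBA_2J and 79.7 CPM in 129S2_SvPasCrl against 126 ± 18.9, or 3.26-fold and 1.59-fold below.

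Summed over Serpina1a to Serpina1e, the level was 17.2 CPM in DBA_2J and 14.6 CPM in 129S2_SvPasCrl against 256 ± 84.5 in WT, which is 14.9-fold and 17.6-fold below the mean. The lowest WT library was at 172 CPM. The sum keeps every read that was placed on any close copy. The make-up also differed: Serpina1b, 8.03% to 12.1% of the summed counts in WT, held 44.2% in DBA_2J (95% exact binomial interval 41.0 to 47.5) and 40.4% in 129S2_SvPasCrl (36.8 to 44.0). Serpina1d held 9.76% and 12.9% there.

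**Figure D5:**
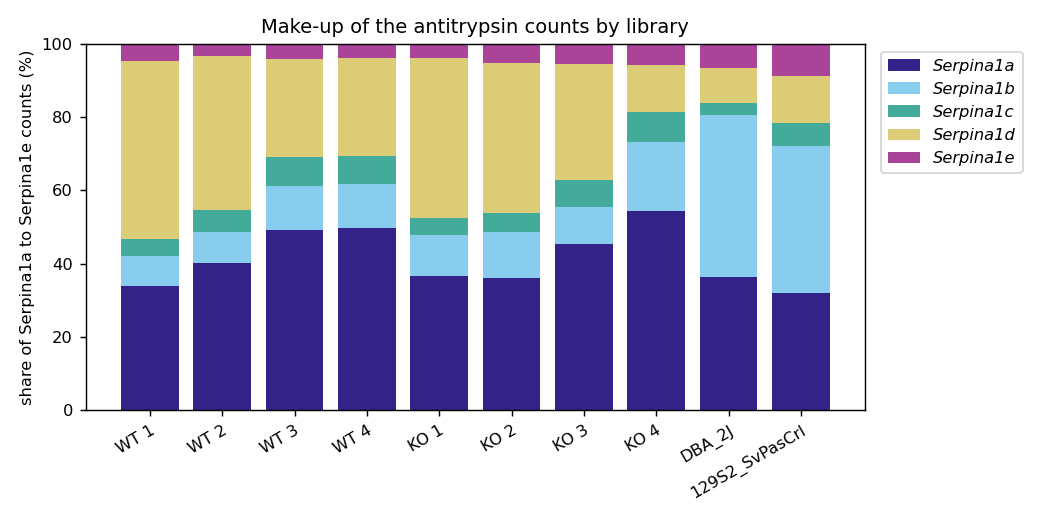
Share of the summed Serpina1a to Serpina1e counts held by each gene (y axis, %), with 1 stacked bar per library. Serpina1b holds 44.2% and 40.4% in DBA_2J and 129S2_SvPasCrl, and Serpina1d ranges from 48.8% in WT 1 to 13.0% in KO 4 among the C57BL/6N libraries.

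Genes on each side of the cluster were close to silent in the kidney, apart from Ppp4r4 and Serpina10. Ppp4r4, a regulatory subunit of a phosphatase, was at 6.04 ± 0.79 CPM in KO and 6.12 ± 0.44 in WT (log2 fold change −0.02, adjusted p = 0.943, edgeR), 6.08 in DBA_2J and 8.60 in 129S2_SvPasCrl. Serpina10, the protein Z-dependent inhibitor of coagulation, was read at 1.02, 0.71, 1.25 and 2.25 CPM in KO and at 0.31, 0.28, 0.63 and 0.47 CPM in WT. All KO libraries lay above all WT libraries (log2 fold change 1.59, SE 0.41, adjusted p = 0.0317, edgeR), and DBA_2J and 129S2_SvPasCrl were higher still, at 2.97 and 3.56 CPM. Serpina6, corticosteroid-binding globulin, was at 1.09 CPM in 129S2_SvPasCrl, 0.203 CPM in DBA_2J and a mean of 0.0198 CPM in WT. Serpina11, Serpina9 and Serpina12 together had 3 counts in all 10 libraries.

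Over all tested genes 6.32% rose in KO and 4.68% fell. Among the other clade A serpins, 1 of 5 tested genes rose in KO (Serpina10), none fell and 4 did not pass. Other secreted protease inhibitors fell in 5 of 20 tested genes and rose in none. Serpinf2, the plasmin inhibitor, was at 165 ± 16.0 CPM in KO and 254 ± 11.6 in WT (log2 fold change −0.62, SE 0.07, adjusted p = 0.00056, edgeR). Wfdc15b (−0.34) and Serpini1, the neuroserpin gene (−0.82), fell as well, and so did Itih2 (−0.84) and Wfdc2 (−0.24), named after their values were seen. Of the proteases that alpha-1 antitrypsin can bind, 2 of 5 tested genes fell: Klk1, tissue kallikrein, from 2114 ± 89.9 to 1417 ± 180 CPM (log2 fold change −0.58, adjusted p = 0.0020), and St14, matriptase, from 66.8 ± 1.92 to 53.4 ± 2.93 (−0.32, adjusted p = 0.0046). Elane, neutrophil elastase, had 2 counts over all libraries. The median log2 fold change was 0.40 over the tested clade A serpins, −0.27 over the other inhibitors and −0.32 over the proteases, beside −0.0057 over all tested genes.

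Factors and receptors that act on antitrypsin transcription passed in 2 of 16 tested genes, where 6.32% of all tested genes rose and 4.68% fell. Stat3, which carries the interleukin-6 signal, rose from 90.7 ± 3.99 CPM in WT to 130 ± 14.7 in KO (log2 fold change 0.53, SE 0.08, adjusted p = 0.0020, edgeR), and Cebpa, a liver-enriched bZIP factor, fell from 47.2 ± 5.10 to 35.8 ± 2.08 (−0.40, adjusted p = 0.0105). None of the 18 genes of folding, export and disposal passed; Os9, a lectin of ER-associated degradation, came nearest (−0.17, adjusted p = 0.0649), then Edem2 (0.16, adjusted p = 0.143). Of 6 uptake receptors, Amn, the partner of cubilin, rose (0.37, adjusted p = 0.0264), and Lrp2, megalin, fell from 1996 ± 144 to 1495 ± 278 CPM (−0.42, adjusted p = 0.0430). The list medians were −0.02 for transcription, 0.04 for folding and export and −0.18 for uptake.

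Cell type markers were read beside the members, since in whole kidney fewer cells of a type and less RNA per cell cannot be told apart. The shares over all tested genes were 6.32% higher and 4.68% lower in KO. Of 8 late proximal tubule (S3) markers, 4 fell in KO and none rose: Slc7a13 from 556 ± 122 to 275 ± 26.6 CPM (log2 fold change −1.01, adjusted p = 0.00090, edgeR), Slc22a30 (−0.68), Acsm3 (−0.53, with 743 exon bases shared with Eri2) and, named after its values were seen, Slco1a1 (−0.74). The summed level of all 8 S3 markers was 2687 to 3395 CPM in KO, 3613 to 4531 in WT, 9831 in DBA_2J and 6061 in 129S2_SvPasCrl. Atp11a, named after its values were seen, held much of it and did not pass (adjusted p = 0.599, edgeR). It stood at 1100 to 1910 CPM in C57BL/6N libraries, 3646 in DBA_2J and 2170 in 129S2_SvPasCrl. The DBA_2J and 129S2_SvPasCrl libraries, 1 animal each, had the lowest antitrypsin levels, read on the C57BL/6J copies, and the highest sums of S3 markers. The part of S3 markers in the values of Serpina1d and Serpina1f was not tested, in KO or between strains. Of 6 early proximal tubule markers, Slc7a7 rose (0.46, adjusted p = 0.0190, with 228 exon bases shared with Oxa1l), and the sums overlapped at 7120 to 8677 CPM in KO and 7623 to 8197 in WT. Slc34a1, at 4844 to 6099 CPM in C57BL/6N libraries, made up most of these sums.

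Of 9 markers of other kidney cells 4 fell, where 4.68% of all tested genes fell and 6.32% rose. They were Acta2 of smooth muscle (−0.62), Aqp2 of the collecting duct (−1.09), Slc12a3 of the distal tubule (−0.39) and Slc12a1 of the thick ascending limb (−0.44). Slc12a1 was named after its values were seen. Of 12 tested hepatocyte markers, Fgg (1.34) and Fga (0.61), chains of fibrinogen, rose and Apoc3 (−0.91) fell; the sums of all 15 were 167 to 214 CPM in KO, 113 to 227 in WT, 61.5 in DBA_2J and 287 in 129S2_SvPasCrl. Ttr, transthyretin, named after its values were seen, held much of the sum in the C57BL/6N and 129S2_SvPasCrl libraries but little in DBA_2J. It stood at 70.8 to 107 CPM in KO, 35.8 to 129.6 in WT, 1.92 in DBA_2J and 215 in 129S2_SvPasCrl. Without Ttr the sums were 96.5 to 109.5 CPM in KO, 77.1 to 119 in WT, 59.6 in DBA_2J and 72.2 in 129S2_SvPasCrl. The defining marker Alb stood at 3.10 CPM in KO 4, the lowest of the 8 and the library with the highest Serpina1b and Serpina1e. It stood at 26.0 CPM in WT 3, the library with the highest Serpina1a and Serpina1c. Ahsg was at most 2.12 CPM and Cps1 at most 0.964 CPM, both in WT 3. Over the C57BL/6N libraries 8 of the 15 markers were highest in WT 3 and 1 in KO 4, while Ttr was highest in WT 2. Among 9 neutrophil markers only S100a9 was abundant enough to test (−0.51, adjusted p = 0.644), the sums were 0.473 to 1.29 CPM in KO and 0.306 to 1.77 in WT, and Mpo was at 0 throughout. The median log2 fold change was −0.44 over the S3 markers, 0.04 over the early proximal tubule markers, −0.22 over the other kidney markers and −0.43 over the tested hepatocyte markers.

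Genes with a pattern most like that of Serpina1f, the member with the highest mean CPM, were sought over all 10 libraries among 13757 genes with a mean of 1 CPM or more. Likeness was the root mean square difference of log2 CPM after centring, and the spread of Serpina1f itself was 0.51 on that scale. Nearest was Pcsk4, a proprotein convertase (0.12), which was at 24.2 CPM in KO, 33.7 in WT, 8.68 in DBA_2J and 20.1 in 129S2_SvPasCrl (KO against WT log2 fold change −0.48, adjusted p = 0.0295, edgeR). A430105I19Rik (0.16) and Pla2g16, a phospholipase gene (0.18), followed. They lie on chromosomes 10, 2 and 19.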

How the data were processed

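Whole-kidney RNA was polyA-captured and read in 100-base single-end reads, per the labels' protocols. The submitters' processing notes name STAR, featureCounts, edgeR and mm10 (GRCm38). Raw counts per gene were made with featureCounts 1.5.2, per the file headers, from primary alignments over exons, without strand, with a read counted for each gene it overlapped. The authors also deposited normalized log2 values of 13645 genes for the 8 C57BL/6N libraries. These equalled log2 CPM with TMM scaling to 4.97e-14.

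Groups came from the labels. Replicates were numbered in accession order and pair nothing, and every pair within a group differed beyond sampling noise (chi-square over its degrees of freedom, 10.6 or more). Counts of KO and WT were fitted in edgeR 4.0.16 (R 4.3.3) on genotype alone: filterByExpr, TMM, quasi-likelihood F test, Benjamini-Hochberg over 15547 genes, calls under 0.05. The biological coefficient of variation was 12.3%. A gene at 1 CPM has 19.79 to 57.25 counts by library. Group means and the members' KO and WT values in CPM used factors from 8 libraries. Strain values (log2 CPM, prior count 2), list sums and single-library values of other genes used factors from all 10, which shifts WT means slightly. The code was tested on simulated counts. Alternatives were DESeq2 1.42.0, limma 3.58.1 on the deposited log2 values, other scalings and filters, thinning, title form and left-out libraries. Transcript sequences were read from GENCODE M21 and promoters from RefSeq, matched by symbol for 6 of 6 members.

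Members and 11 gene lists were chosen with earlier results of these data known. Named genes are the members, Ehhadh, 3 neighbours on each side, up to 3 called genes per list by smallest p (2 where none was called), and the 3 genes most like the member with the highest mean CPM and like Serpina1f, which are the same gene. Genes outside this rule, chosen after their values were seen, are marked where they are named, apart from Slc34a1, Umod, Elane, Alb, Ahsg, Cps1 and Mpo, defining members of their lists. A gene of the lists is not reported here by itself.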

Additional observations from a re-analysis of the deposited data

Results flagged for a closer look

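Within the KO group of 4, library KO 4 stood apart for Serpina1a, at 174 CPM against 72.4 for the next highest, a gap of 0.915 of the group's range. It stood apart for Serpina1b as well, at 59.8 against 22.2 CPM (0.865 of the range). For Serpina1c it was at 26.3 against 11.8 CPM (0.838), and for Serpina1e at 18.0 against 8.90 CPM (0.890). Each gap is above Dixon's 95% critical value for a group of 4, which chance passes in about 1 in 20 groups; these 4 genes share sequence and libraries, so they are not 4 independent flags. In the same library Serpina1d was the lowest of the KO group, at 41.4 CPM, and Serpina1f the highest, at 112 CPM, neither past the limit. No WT group passed it.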

How the results depend on the processing

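No paired analysis was possible because replicate numbers follow accession order and no label ties a KO animal to a WT animal. The 84 recomputed strain differences (6 members, 2 strains, 7 settings each) all kept their direction. All moved by less than the standard deviation of the 4 WT libraries. For settings that left out 1 WT library this was fixed in advance, since dropping 1 of 4 values cannot move their mean that far. The deposited log2 values could not be used for the strain differences, since that table holds the C57BL/6N libraries alone. In KO against WT, Serpina1f passed in DESeq2 (−0.37, adjusted p = 0.0207) and with title form as a term (−0.36, adjusted p = 0.0496), as did Serpina1d with that term (−0.53, adjusted p = 0.0481). In the libraries with a leading E alone, 143 genes were called against 1710, Serpina1d was at −0.93 (adjusted p = 0.0495) and Serpina1b at −0.0386. In those without it, 1723 genes were called and Serpina1b was at 0.50 (adjusted p = 0.0203). Calls over all genes were 2388 in DESeq2 and 2050 with title form as a term. With 1 library left out, calls ran from 1005 (without KO 1) to 1638; they were 1068 without KO 2 and 1006 without WT 3. The log2 fold change ran from −0.75 to −0.0057 for Serpina1a, −0.46 to 0.45 for Serpina1b, −0.84 to −0.03 for Serpina1c, −0.67 to −0.32 for Serpina1d, −0.28 to 0.36 for Serpina1e and −0.44 to −0.29 for Serpina1f. Serpina1b and Serpina1e turned negative without KO 4, WT 1 or WT 2. Serpina1d passed without KO 1, and Serpina1f without KO 4 or WT 2. Counting all alternative settings, Serpina1d did not pass in 13 and Serpina1f did not pass in 12. The interaction with title form passed for 1 member, Serpina1d, with no filter, against 0. Summed as 1 row, Serpina1a to Serpina1e stood at −0.28. The causes were not tested. At 30 to 95 counts, Serpina1c, Serpina1d and Serpina1e are the least precise values of the strain libraries.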

Other observations

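Other clade A serpins that were near 0 in C57BL/6N kidney were read in the DBA_2J library, and these genes were picked after their values were seen. Serpina3b was at 4.83 CPM there against 0.0398 ± 0.0602 in WT, Serpina3a at 3.21 CPM against 0 in all 8 C57BL/6N libraries, Serpina5, the protein C inhibitor, at 2.27 CPM against 0.00796 in WT, and Serpina3h at 1.81 CPM against 0 in WT. In 129S2_SvPasCrl none of these 4 exceeded 0.0198 CPM. Serpinf2, which fell in KO, was higher in both strains, at 584 CPM in DBA_2J and 472 CPM in 129S2_SvPasCrl. These strain values have no replicate.

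The search for like patterns was repeated for every member after the data were seen. Over the 8 C57BL/6N libraries the gene nearest to Serpina1a of 13757 was Per3, of the circadian clock. Its root mean square difference was 0.25, where the spread of Serpina1a is 0.63 on the log2 scale. It was also the nearest to Serpina1b (0.35) and Serpina1c (0.28). Other genes were almost as near, such as Slc6a7 to Serpina1a (0.27) and Serpina1b (0.36), and Hao2 to Serpina1c (0.29). The nearest to Serpina1e was Gm20743 (0.17) and to Serpina1f Tfap2b (0.052). Per3 was at 18.7, 17.6, 22.4 and 64.7 CPM in KO 1 to KO 4 and 23.3, 21.5, 42.5 and 50.3 CPM in WT 1 to WT 4, so it was high in the same 3 libraries, KO 4, WT 3 and WT 4. In the other strains it went the opposite way from the members, at 64.2 CPM in DBA_2J and 88.9 in 129S2_SvPasCrl.

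Over all 10 libraries the 2 genes nearest to Serpina1d were Trim12a (0.41, where the spread of Serpina1d is 2.15) and Cyp4a10, a fatty acid ω-hydroxylase (0.44). Cyp4a10 was at 1422 to 2198 CPM in the C57BL/6N libraries, 75.5 in DBA_2J and 78.3 in 129S2_SvPasCrl. Its log2 fold change between KO and WT was −0.10 (adjusted p = 0.696, edgeR). Over the 8 C57BL/6N libraries, where the spread of Serpina1d is 0.40, the nearest genes were others. They were Xkrx (0.12), 2010300C02Rik (0.12) and Rgma (0.13).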
